A study of Mus musculus with 12 samples.

Results

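The genes described here encode the chaperones and folding enzymes of the endoplasmic reticulum (ER), the machinery that answers ER stress, and the chaperones of the cytosol and of mitochondria. The list named 38 genes, and they were found by the symbol that the array's annotation pairs with a probe set. Of these, 35 had a probe set with a single symbol: 20 ER genes, 12 cytosolic chaperone genes and 3 mitochondrial chaperone genes, out of 18820 genes in all. Pdia4, Hsp90ab1 and Hsf1 are not analysed here.

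RNA was profiled on 12 Mouse Gene 1.1 ST arrays from Affymetrix, in B lymphoma cells of l-MYC;B1-8f mice (strain C57BL/6J x BALB/c), which carry a MYC transgene and a heavy chain variable region of the B-cell receptor (BCR) that Cre can delete. All 4 groups came from primary cultures that had been transduced with TAT-Cre, a Cre protein that enters cells by itself, so cells that kept the BCR had met the recombinase too. Cells with and without the BCR competed in 1 culture for 4 days, either untreated or in the presence of CHIR99021, which blocks the kinase GSK3, before a flow sort separated them. Each of lymphomas 2564, 2646 and 2676 gave 1 array to each group: untreated BCR-positive, untreated BCR-negative, CHIR99021-treated BCR-positive and CHIR99021-treated BCR-negative. Neither the dose of CHIR99021 nor the age of the mice is given in the sources used here. Each lymphoma is 1 tumour, so n = 3 throughout.

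The sort was checked on Ighv1-72, the variable segment behind the B1-8 heavy chain, which was lower in BCR-negative cells by a log2 difference of -2.11 ± 0.331 (SE) without and -2.95 ± 0.331 with CHIR99021 (limma, adjusted p = 0.0176 and 0.0498). B-cell identity was read from 9 measured markers, of which Cd79b had a mean log2 signal of 11.42 and Ms4a1, which encodes CD20, only 3.24, below the array medians of 4.71 to 4.92. The mean log2 signal of 9 T-cell markers stayed between 4.04 and 4.35 on every array, that of 9 myeloid markers between 4.40 and 5.28, and that of 10 plasma cell markers between 6.92 and 7.45. These means hide single markers well above the array medians. Of the myeloid list, Itgam read 8.03 in untreated BCR-negative cells of 2646. In treated BCR-positive cells Csf1r read 8.53 (2646) and Mpeg1 7.76 (2676), as did Cd28 of the T-cell list with 6.23 (2646). Adgre1 had the lowest mean of the myeloid list, 3.55.

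The ER folds proteins that are to be secreted or inserted into membranes. Its main chaperone, BiP (encoded by Hspa5), works with J-domain co-chaperones, while calnexin and calreticulin hold glycoproteins and hand them to disulfide isomerases, and proteins that fail to fold are passed back to the cytosol for degradation. When misfolded proteins build up, the sensors IRE1 (Ern1), ATF6 and PERK start the unfolded protein response: ATF6 and the spliced form of XBP1 then switch on chaperone genes through the ER stress element in their promoters. In the cytosol, heat shock factor 1 drives the genes of the HSP70 and HSP90 systems through heat shock elements, and the TRiC chaperonin folds actin, tubulin and other newly made proteins. B cells on their way to antibody secretion are known to enlarge this ER machinery.

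The promoters are shown first because their letters do not come from the arrays. The ER stress element is known from ER chaperone genes such as these members, so its presence here is a description and not a test. The RefSeq table of assembly GRCm38.p6 gives, for each annotated start, 250 bases before it and 50 after it, and it held such a window for 29 of the 35 members. The ER stress element was searched on both strands as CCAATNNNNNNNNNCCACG, which contains the shorter motif CCACG. It lay in 8 of 17 ER members with a window (47.1%), in 0 of 10 cytosolic and 0 of 2 mitochondrial members, and in 0.119% of all 32851 windows (0.137% of the table's 27025 genes, some of which have several starts). Each stretch below runs 5′ to 3′ in the direction of the gene, with the fixed letters of the element in capitals. Creld2, Calr and the second match of Hsp90b1 hold it in reverse, so that they read CGTGG first and ATTGG last.
Hspa5, chr2:34772020-34772048, plus strand: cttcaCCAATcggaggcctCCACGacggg
Hsp90b1, chr10:86705633-86705661, minus strand: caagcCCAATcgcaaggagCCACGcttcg
Hsp90b1, chr10:86705528-86705556, minus strand: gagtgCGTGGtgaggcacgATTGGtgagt
Pdia6, chr12:17266486-17266514, plus strand: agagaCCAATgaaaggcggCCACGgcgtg
Dnajc3, chr14:118937822-118937850, plus strand: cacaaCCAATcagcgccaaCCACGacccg
Calr, chr8:84847070-84847098, minus strand: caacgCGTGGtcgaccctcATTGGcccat
Canx, chr11:50325795-50325823, minus strand: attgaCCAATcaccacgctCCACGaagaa
Creld2, chr15:88819515-88819543, plus strand: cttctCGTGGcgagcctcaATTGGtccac
Syvn1, chr19:6046527-6046555, plus strand: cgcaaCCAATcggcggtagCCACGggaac

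The elements began between 44 bases (Syvn1) and 212 bases (Hsp90b1) before the annotated start. Hsp90b1, which encodes the HSP90 of the ER, was the only member with 2 of them. CCACG on its own is common: 32.8% of all windows (35.5% of genes) hold it on either strand. It lay in 15 of the 17 ER members, 7 of 10 cytosolic members and 2 of 2 mitochondrial members with a window, so it was not particular to the ER genes. Dnajb9 and Herpud1, the members whose calls below run against those of the others, held CCACG but not the element with its spacer of 9 bases. Pdia3 and Dnajb11, whose calls run the other way, lacked that element too, and elements with other spacers were not searched. In the Herpud1 stretch below, the CCACG nearer to the start follows ATTGG, which is CCAAT in reverse, with 1 base between them. This arrangement was not part of the search, and its share among all windows was not counted. Herpud1 is therefore not shown to lack an ER stress element of another form. The stretches of Dnajb9 and Herpud1 up to the start are printed with CCACG in capitals.
Dnajb9, chr12:44210069-44210208, minus strand: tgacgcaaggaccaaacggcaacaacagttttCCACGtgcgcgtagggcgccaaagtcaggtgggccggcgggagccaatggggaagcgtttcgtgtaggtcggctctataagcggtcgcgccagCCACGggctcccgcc
Herpud1, chr8:94386289-94386428, plus strand: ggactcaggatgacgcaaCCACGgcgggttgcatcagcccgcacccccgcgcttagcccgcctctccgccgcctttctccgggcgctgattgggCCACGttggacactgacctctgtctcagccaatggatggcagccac

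After the values had been seen, the search was widened to stretches that differ from the element by 1 fixed letter. With these, 11 of 17 ER members had a match, against 1.5% of all windows (1.72% of genes). The additions were Herpud1, Pdia3 and Sel1l. Counted from 1 at the first base of the element, the substitution was G19A in Herpud1 and Pdia3 and C18T in Sel1l. Pdia3 is shown with the element's positions in capitals.
Pdia3, chr2:121413868-121413896, plus strand: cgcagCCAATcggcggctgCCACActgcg

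The heat shock element was searched as GAANNTTC and TTCNNGAA, each of which reads the same on both strands. At least 1 of them was present in 4 of 10 cytosolic members with a window (Hsph1, Dnaja1, Cct2 and Cct5), in both mitochondrial members with a window (Hspd1 and Hspe1), in 0 of 17 ER members and in 15.1% of all windows (17.0% of genes). Cct2 and Hspd1 hold it only at the second of their listed starts. Hspd1 and Hspe1 lie head to head and share the stretch that holds it, so they are not separate cases. The stretches of Hsph1 and Hspe1 show it with the fixed letters in capitals.
Hsph1, chr5:149636353-149636381, minus strand: tgggtagaatctTTCtcGAAggctcgaga
Hspe1, chr1:55088053-55088082, plus strand: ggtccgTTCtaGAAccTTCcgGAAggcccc

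A match is a description of these letters and not a binding site.

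**Figure D1:**
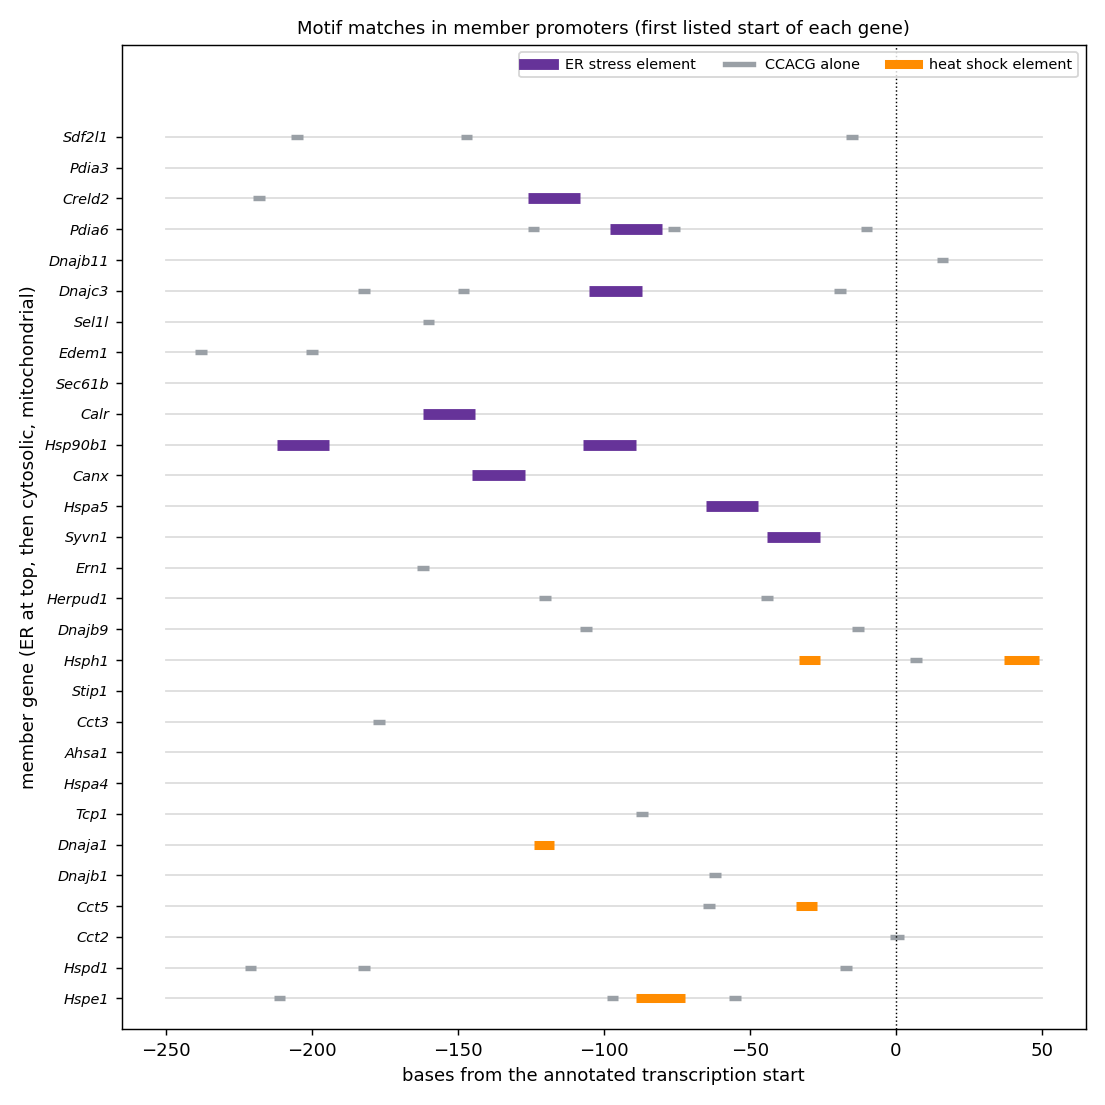
Motif matches in the promoter windows of 29 members, 1 row per gene, for the first start listed; the x axis is the distance in bases from the annotated start. Purple bars mark the ER stress element, grey bars CCACG outside that element and orange bars a heat shock element. The purple bars lie in 8 ER genes, 44 to 212 bases before the start; the heat shock elements of Cct2 and Hspd1, at their other start, are not drawn.

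The first comparison asked how BCR loss bore on these genes in cultures without inhibitor. Of the 35 members, 6 fell and 2 rose in untreated BCR-negative cells, where 2.3% of all genes were called lower and 1.91% higher. The disulfide isomerase genes Pdia3 (1.40-fold lower) and Pdia6 (1.34-fold lower), the ER stress gene Creld2 (1.38-fold lower), the HSP110 gene Hsph1 (1.43-fold lower), the co-chaperone gene Stip1 (1.27-fold lower) and the mitochondrial chaperonin gene Hspd1 (1.22-fold lower) fell. Dnajb9 (1.83-fold higher) and Herpud1 (1.32-fold higher), which encode an ER co-chaperone and a part of the ER degradation machinery, rose.

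By compartment, 3 of 20 ER members fell, 2 rose and 15 did not pass, 2 of 12 cytosolic members fell and 10 did not pass, and 1 of 3 mitochondrial members fell and 2 did not pass. Calls are genes with an adjusted p under 0.05 in limma, a linear model with group and lymphoma fitted over all 12 arrays and adjusted by Benjamini-Hochberg over 18820 genes. The median log2 difference was -0.24 over the ER members, -0.17 over the cytosolic and -0.17 over the mitochondrial ones, beside -0.0023 over all genes. At an unadjusted p under 0.05 in limma 21 members were lower and 2 higher, against 12.2% and 8.36% of all genes. A negative difference was found in 17 of 20 ER members and in all 15 others, and in 25 of 35 members it was negative in each lymphoma, against 21.8% of all genes. The members are bright genes: median log2 signals were 9.67 (ER), 10.85 (cytosolic) and 11.28 (mitochondrial), against 5.13 over all genes. Shares of all genes, here and below, include many dim genes and so compare unlike sets. Without the dimmest 30% of genes, limma called 999 of 13174 genes and 9 of the 35 members. In these bulk samples, fewer cells of a kind and less RNA per cell cannot be told apart.

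These calls depended on the fit and on many of the arrays. Without lymphoma 2564, 2646 or 2676, 4, 0 and 0 members were called (23, 11 and 18 at an unadjusted p under 0.05 in limma, 23 with all arrays), and without the lymphoma block 0 (10 at an unadjusted p under 0.05). Treating the lymphoma as a random effect left 0 calls (23 members at an unadjusted p under 0.05), as did fitting the 6 untreated arrays alone (21 members). Leaving out the untreated BCR-positive array of 2564, 2646 or 2676 or the untreated BCR-negative array of 2646 gave 0 (18 to 21 at an unadjusted p under 0.05), the untreated BCR-negative array of 2676 gave 3, the treated BCR-positive array of 2646 or 2676 gave 3, and the treated BCR-negative array of 2646 gave 2. Subtraction of array medians gave 1 higher and 13 lower among the members, and 288 higher and 1013 lower among all genes in place of 359 and 432. Cyclic loess gave 2 higher and 4 lower among the members and 389 higher and 261 lower among all genes. Neither moved the median of all genes by as much as 0.1. With culture as a block, Herpud1, Pdia6, Stip1 and Hspd1 did not pass. In each of these settings 31 or 32 of the 35 members had a negative difference. P-values here weigh the mean change against the spread left after group and lymphoma are fitted. That spread is pooled over all 4 groups and moderated across genes by limma, so it is not particular to 1 comparison.

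The second comparison asked what CHIR99021 did to the BCR-negative cells. Here 5 of the 35 members rose and 2 fell, against 1.91% and 1.76% of all genes. Hsph1 (1.59-fold higher), Pdia3 (1.43-fold higher), the J-domain gene Dnajb11 (1.37-fold higher), Creld2 (1.31-fold higher) and Hspd1 (1.23-fold higher) rose, while Dnajb9 (1.91-fold lower) and Herpud1 (1.37-fold lower) fell. The median difference was 0.16 over ER, 0.18 over cytosolic and 0.21 over mitochondrial members, beside 0.010 over all genes. At an unadjusted p under 0.05 in limma 19 members were higher and 3 lower, against 11.4% and 7.56% of all genes, and 25 of 35 members were higher in each lymphoma, against 21.2% of all genes.

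This comparison and the first share the untreated BCR-negative arrays, which enter them with opposite signs. The 2 sets of values are therefore not independent, and they are given side by side without a test of their likeness. Without lymphoma 2564, 2646 or 2676, 0, 0 and 1 members were called (15, 11 and 17 at an unadjusted p under 0.05 in limma, 22 with all arrays), and without the block 0 (12 at an unadjusted p under 0.05). Treating the lymphoma as a random effect, or fitting the 6 BCR-negative arrays alone, also left 0 calls (19 members at an unadjusted p under 0.05 in each). Leaving out the treated BCR-negative array of 2564 or 2646 or the untreated BCR-negative array of 2646 gave 0 (13 to 14 at an unadjusted p under 0.05), and leaving out the untreated BCR-positive array of 2564 or 2676, the treated BCR-positive array of 2646 or 2676, or the untreated BCR-negative array of 2676 gave 3 or 4. After subtraction of array medians, 836 of all genes were higher and 253 lower, in place of 360 and 332, and after cyclic loess 237 and 354. Among the members these gave 7 higher and 2 lower, and 4 higher and 2 lower. Between 3 and 6 of the 35 members had a negative difference in these settings, 4 with all arrays.

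**Figure D2:**
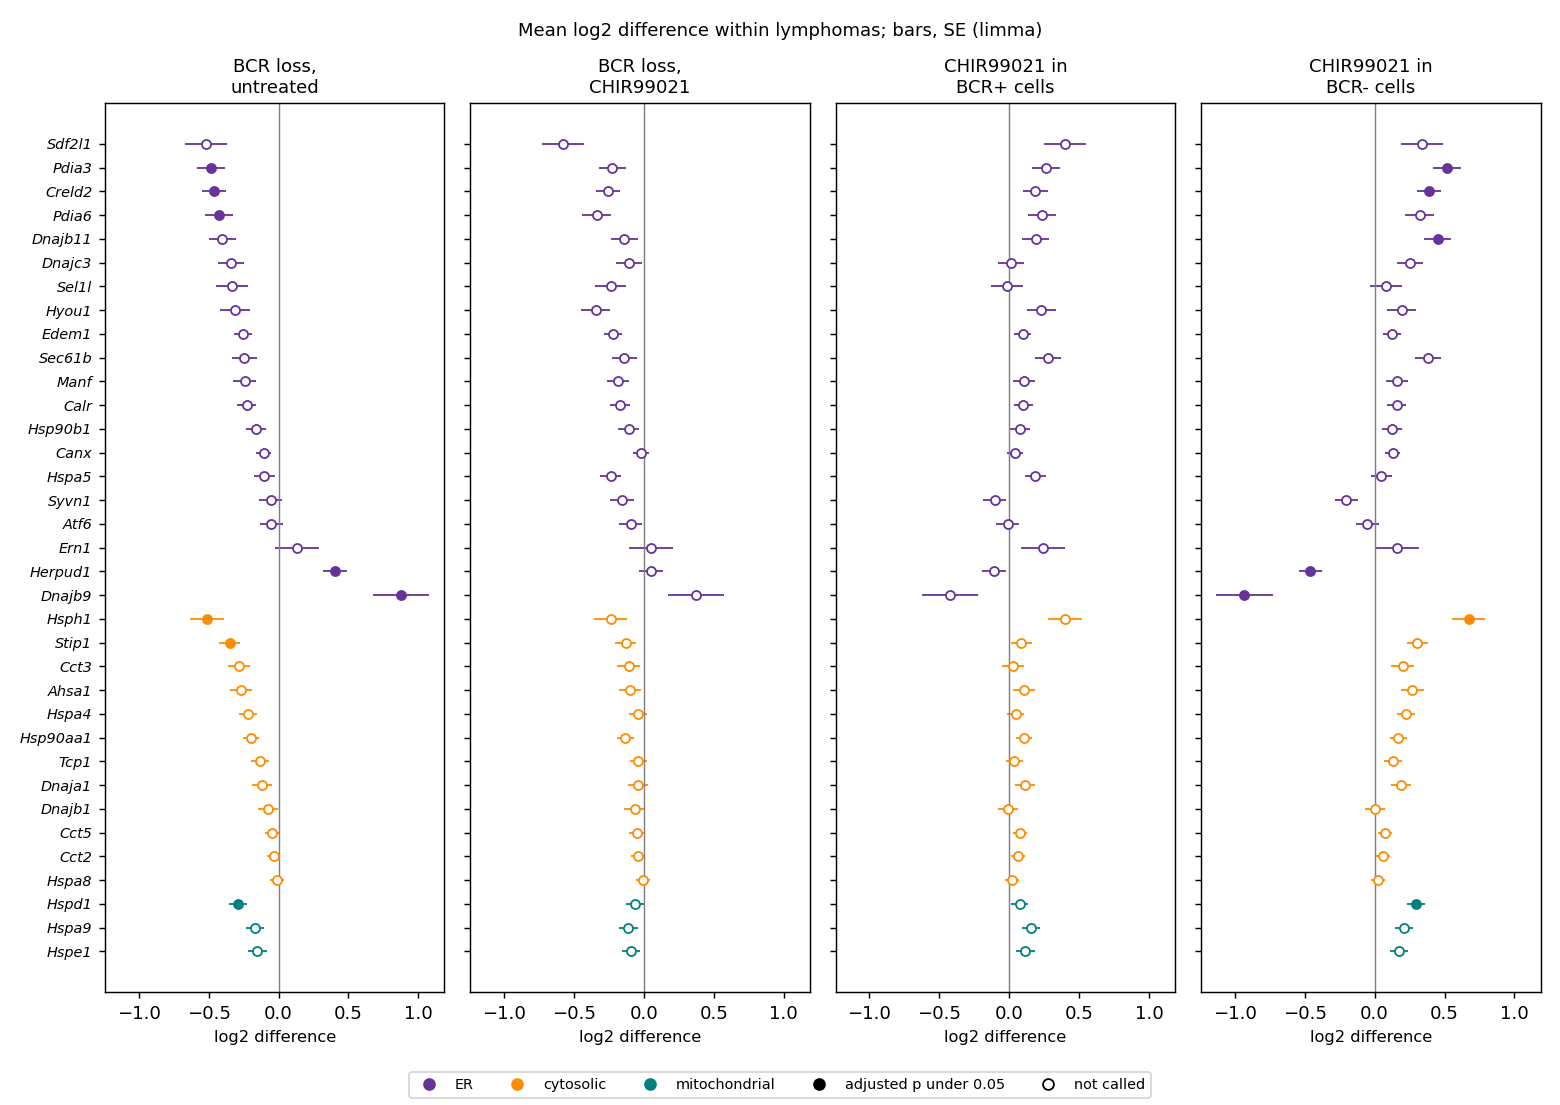
Mean log2 difference of each of the 35 members in 4 comparisons (x axis, log2 scale; bars, SE from limma, n = 3 lymphomas), with ER members in purple, cytosolic in orange and mitochondrial in teal, and filled points for an adjusted p under 0.05. For BCR loss in untreated cultures all but Ern1, Herpud1 and Dnajb9 lie left of 0, and for CHIR99021 in BCR-negative cells all but Syvn1, Atf6, Herpud1 and Dnajb9 lie right of it.

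In the following, signals are log2 values on the array, given in the order of lymphomas 2564, 2646 and 2676. They compare 1 gene between arrays, and not genes with each other. Differences are log2 values with the SE from limma, and "with BCR loss" refers to untreated cultures unless stated. Among the disulfide isomerases, Pdia3 (which works on glycoproteins held by calnexin and calreticulin) read 10.58, 10.29 and 10.24 in untreated BCR-positive cells and 10.19, 9.56 and 9.92 in untreated BCR-negative cells. With CHIR99021 it read 10.73, 10.66 and 10.51 in BCR-positive and 10.68, 10.24 and 10.30 in BCR-negative cells. Untreated BCR-negative cells were the lowest group and overlapped with no other. Pdia3 fell by 0.48 ± 0.0982 with BCR loss in untreated cultures and rose by 0.52 ± 0.0982 with CHIR99021 in BCR-negative cells (limma, adjusted p = 0.0317 and 0.0261).

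Pdia6, a second isomerase, read 9.40, 9.16 and 8.93 in untreated BCR-positive and 8.99, 8.56 and 8.67 in untreated BCR-negative cells. In CHIR99021 it read 9.65, 9.23 and 9.31 in BCR-positive and 9.55, 8.92 and 8.70 in BCR-negative cells. It was lower in BCR-negative cells of each lymphoma, but the untreated groups overlapped, since lymphoma 2564 was high in both. Pdia6 fell by 0.43 ± 0.101 with BCR loss (limma, adjusted p = 0.0484, but not after cyclic loess), and its difference with CHIR99021 in BCR-negative cells, 0.32 ± 0.101, did not pass (limma, adjusted p = 0.111). The latter was 0.56, 0.37 and 0.038 in the 3 lymphomas.

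Creld2, whose product is an ER resident induced by ER stress, read 8.93, 9.08 and 8.97 in untreated BCR-positive and 8.44, 8.48 and 8.67 in untreated BCR-negative cells. Under CHIR99021 the values were 8.96, 9.23 and 9.35 in BCR-positive and 8.96, 8.80 and 9.01 in BCR-negative cells. Every untreated BCR-negative array was below every other array of this gene. Creld2 fell by 0.46 ± 0.0881 with BCR loss and rose by 0.39 ± 0.0881 with CHIR99021 in BCR-negative cells (limma, adjusted p = 0.0285 and 0.0443). The rise did not pass after cyclic loess.

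The lectin chaperones were called in no comparison. Calr (calreticulin) read 10.94, 10.93 and 10.91 in untreated BCR-positive and 10.78, 10.60 and 10.72 in untreated BCR-negative cells, groups that did not overlap. Treated BCR-positive cells read 10.99, 11.06 and 11.03, each above the untreated ones, and treated BCR-negative cells 11.00, 10.82 and 10.74. Its difference of -0.23 ± 0.0683 with BCR loss did not pass (limma, adjusted p = 0.0889). Canx (calnexin) read 11.54, 11.60 and 11.63 in untreated BCR-positive, 11.55, 11.40 and 11.51 in untreated BCR-negative, 11.58, 11.67 and 11.65 in treated BCR-positive and 11.61, 11.58 and 11.66 in treated BCR-negative cells. The CHIR99021-treated BCR-negative arrays were above the untreated BCR-negative ones, by 0.13 ± 0.0567 (limma, adjusted p = 0.256), and the untreated groups overlapped.

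Of BiP, the HSP90 of the ER and the BiP partners described below, only Dnajb9 had a positive difference with BCR loss. Hspa5 itself read 10.59, 10.42 and 10.52 in untreated BCR-positive and 10.54, 10.32 and 10.38 in untreated BCR-negative cells, a difference of -0.10 ± 0.0753 that did not pass (limma, adjusted p = 0.530). With CHIR99021 it read 10.70, 10.65 and 10.74 in BCR-positive cells, above each untreated BCR-positive array, and 10.70, 10.21 and 10.46 in BCR-negative cells. Hsp90b1 read 10.94, 10.85 and 10.93 in untreated BCR-positive and 10.93, 10.64 and 10.66 in untreated BCR-negative cells, with -0.16 ± 0.0717 for BCR loss (limma, adjusted p = 0.244). It read 10.95, 11.00 and 10.98 in treated BCR-positive and 10.99, 10.74 and 10.88 in treated BCR-negative cells. The treated BCR-positive arrays were all above the untreated BCR-positive ones, by 0.077 ± 0.0717, which did not pass.

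Dnajb11, a J-domain protein that brings unfolded clients to BiP, read 8.62, 8.77 and 8.59 in untreated BCR-positive and 8.32, 8.12 and 8.34 in untreated BCR-negative cells. Under CHIR99021 it read 8.72, 8.84 and 8.99 in BCR-positive and 8.78, 8.51 and 8.84 in BCR-negative cells. The untreated BCR-negative group lay below all others without overlap. The difference with BCR loss, -0.40 ± 0.0975, did not pass (limma, adjusted p = 0.0516), while Dnajb11 rose by 0.45 ± 0.0975 with CHIR99021 in BCR-negative cells (limma, adjusted p = 0.0389).

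Dnajb9, another J-domain partner of BiP that is also known to restrain IRE1, had the opposite direction. It read 8.78, 9.01 and 8.77 in untreated BCR-positive and 9.54, 10.19 and 9.45 in untreated BCR-negative cells, and with CHIR99021 8.17, 8.49 and 8.63 in BCR-positive and 8.53, 8.61 and 9.26 in BCR-negative cells. Untreated BCR-negative cells were the highest group without overlap, and CHIR99021-treated BCR-positive cells lay below the untreated ones. Dnajb9 rose by 0.88 ± 0.201 with BCR loss and fell by 0.93 ± 0.201 with CHIR99021 in BCR-negative cells (limma, adjusted p = 0.0443 and 0.0388). Both were largest in lymphoma 2646 (1.18 and -1.59), and the difference with CHIR99021 was -0.19 in 2676. The rise did not pass with the trend and robust options of eBayes switched on together.

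Of the remaining BiP partners, none passed in any comparison. Sdf2l1, which binds Dnajb11, had the largest negative difference of the ER members with BCR loss, -0.52 ± 0.151 (limma, adjusted p = 0.0839), with -0.37, -0.62 and -0.57 in the 3 lymphomas. Dnajc3, a J-domain protein that also inhibits PERK, had -0.34 ± 0.0924. Hyou1, the large HSP70 relative that recharges BiP, had -0.31 ± 0.104, and Manf, a small secreted stress protein, -0.24 ± 0.0792 (limma, adjusted p between 0.0669 and 0.121 for these 4). With CHIR99021 in BCR-negative cells the same genes stood at 0.34, 0.25, 0.19 and 0.16.

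The genes of ER-associated degradation split. Herpud1, which gathers the degradation complex at the membrane, read 10.50, 10.29 and 10.84 in untreated BCR-positive and 10.81, 10.93 and 11.10 in untreated BCR-negative cells. With CHIR99021 it read 10.32, 10.16 and 10.82 in BCR-positive and 10.44, 10.28 and 10.73 in BCR-negative cells, each of the latter below all untreated BCR-negative arrays. Lymphoma 2676 was high in BCR-positive cells, so the untreated groups overlapped. Herpud1 rose by 0.40 ± 0.0853 with BCR loss and fell by 0.46 ± 0.0853 with CHIR99021 in BCR-negative cells (limma, adjusted p = 0.0353 and 0.0250). The rise did not pass after subtraction of array medians.

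Edem1, a lectin that picks out misfolded glycoproteins, had the opposite sign. It read 9.89, 10.01 and 10.12 in untreated BCR-positive and 9.68, 9.78 and 9.80 in untreated BCR-negative cells, and 10.09, 10.07 and 10.14 in BCR-positive and 9.93, 9.88 and 9.83 in BCR-negative cells with CHIR99021. In both culture conditions the BCR-negative group lay below the BCR-positive group without overlap. The differences of -0.25 ± 0.0637 and -0.22 ± 0.0637 did not pass (limma, adjusted p = 0.0562 and 0.473). Syvn1, the ubiquitin ligase HRD1, read 10.35, 10.09 and 10.01 in untreated BCR-positive and 10.37, 10.09 and 9.81 in untreated BCR-negative cells. With CHIR99021 its values were 10.15, 9.96 and 10.03 in BCR-positive and 9.95, 9.87 and 9.85 in BCR-negative cells. The latter were all below the former, and the difference of -0.16 ± 0.0840 did not pass. Sel1l, the partner of HRD1, had -0.50, 0.038 and -0.53 with BCR loss in the 3 lymphomas, so that lymphoma 2646 stood apart from the others.

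The sensors did not pass. Atf6 read 9.77, 9.49 and 9.80 in untreated BCR-positive and 9.71, 9.51 and 9.68 in untreated BCR-negative cells, and 9.95, 9.39 and 9.69 in BCR-positive and 9.85, 9.40 and 9.49 in BCR-negative cells with CHIR99021. The lymphomas differed more than the groups, and the difference with BCR loss was -0.052 ± 0.0822 (limma, adjusted p = 0.814). Ern1 read 7.37, 6.67 and 6.95 in untreated BCR-positive and 7.20, 6.94 and 7.25 in untreated BCR-negative cells, and 7.87, 6.51 and 7.35 and 7.66, 6.84 and 7.38 in the treated groups in the same order. Its difference with BCR loss was 0.13 ± 0.157, with signs that differed between lymphomas. The lymphomas accounted for 75.2% of the sum of squares of Atf6 and for 72.3% in Ern1, against 4.67% for Dnajb11, 6.84% for Dnajb9 and 8.08% for Creld2. Over the 20 ER members together the share was 38.4% and that of the groups 48.9%, beside 76.7% and 14.3% over all genes. The split was not particular to the ER members: it was 40.6% and 48.4% over the cytosolic and 32.9% and 55.7% over the mitochondrial members. The RNA of a sensor is no measure of its activity. Sec61b, a subunit of the channel through which proteins enter the ER, had -0.24 ± 0.0924 with BCR loss and 0.38 ± 0.0924 with CHIR99021 in BCR-negative cells (limma, adjusted p = 0.165 and 0.0530).

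**Figure D3:**
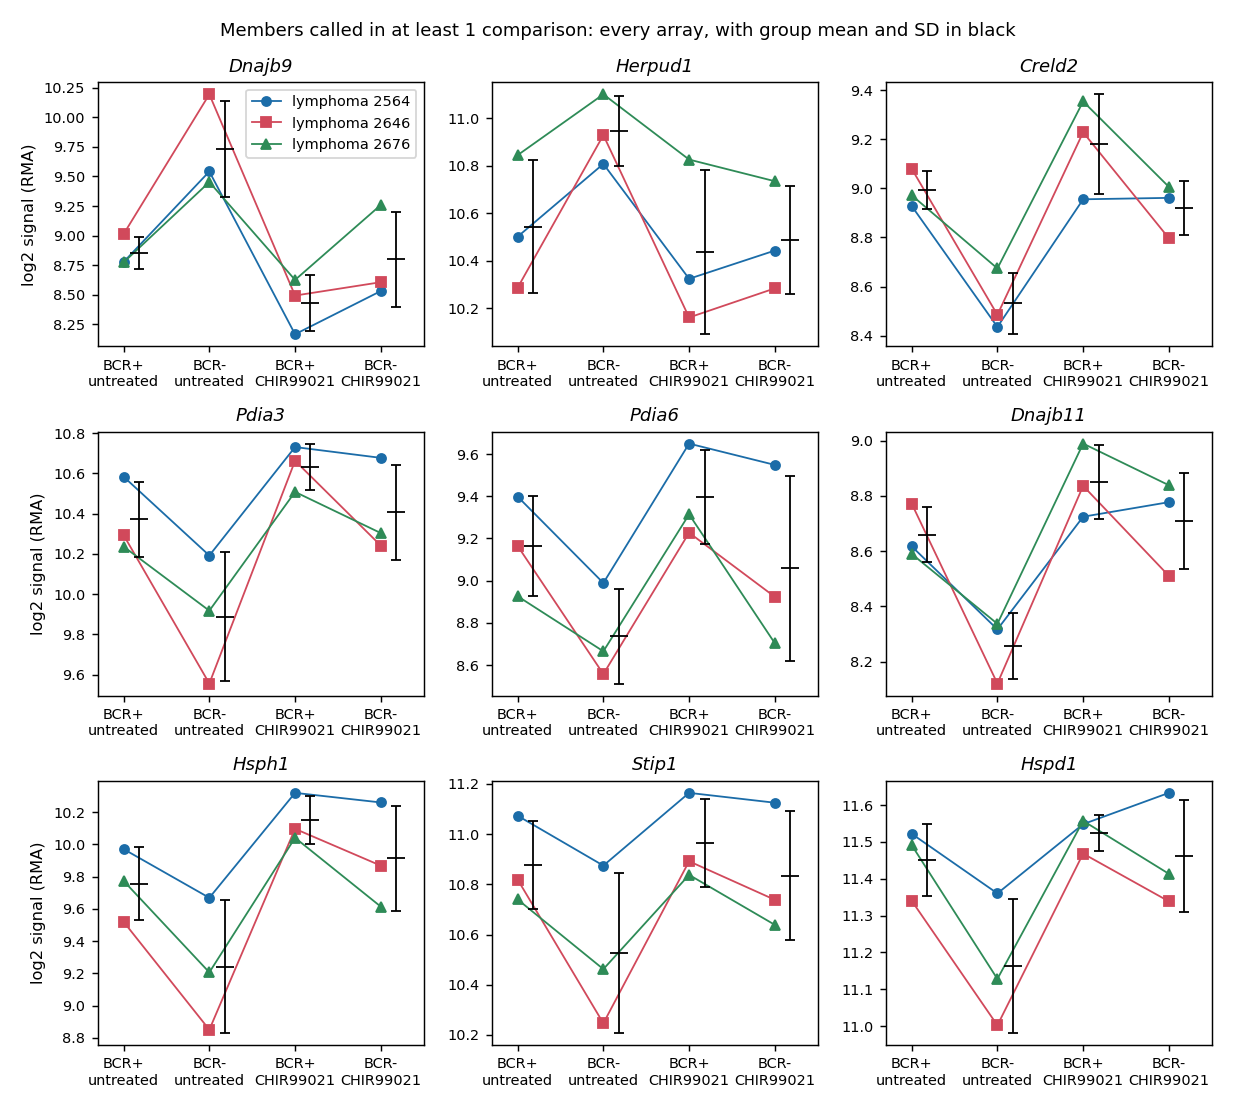
Log2 signal (RMA) on all 12 arrays for the 9 members called in at least 1 comparison; lines join the arrays of 1 lymphoma, and black bars give the group mean and SD (n = 3). Dnajb9 and Herpud1 have their highest group mean in untreated BCR-negative cells, where the other 7 genes have their lowest.

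Of the cytosolic chaperones, Hsph1 and Stip1 were called and the constitutive HSP70 was not. Hsph1, an HSP110 protein that recharges HSP70, read 9.97, 9.52 and 9.77 in untreated BCR-positive and 9.67, 8.85 and 9.21 in untreated BCR-negative cells. With CHIR99021 it read 10.32, 10.10 and 10.04 in BCR-positive cells, each above every untreated array of the gene, and 10.26, 9.87 and 9.61 in BCR-negative cells. Hsph1 fell by 0.51 ± 0.120 with BCR loss and rose by 0.67 ± 0.120 with CHIR99021 in BCR-negative cells (limma, adjusted p = 0.0465 and 0.0218). The fall did not pass after cyclic loess. In BCR-positive cells CHIR99021 gave 0.40 ± 0.120, which did not pass (limma, adjusted p = 0.278).

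Stip1, the adaptor that joins HSP70 to HSP90, read 11.07, 10.82 and 10.74 in untreated BCR-positive and 10.87, 10.25 and 10.46 in untreated BCR-negative cells, and 11.16, 10.89 and 10.84 in BCR-positive and 11.13, 10.74 and 10.64 in BCR-negative cells with CHIR99021. BCR-negative arrays were the lower ones in each lymphoma and culture. Stip1 fell by 0.35 ± 0.0764 with BCR loss (limma, adjusted p = 0.0385), and its difference with CHIR99021 in BCR-negative cells, 0.31 ± 0.0764, did not pass (limma, adjusted p = 0.0585). Ahsa1, which activates the ATPase of HSP90, had -0.27 ± 0.0801 and 0.27 ± 0.0801 in these comparisons, and neither passed.

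Hspa4, a relative of Hsph1, read 10.86, 10.91 and 10.82 in untreated BCR-positive and 10.74, 10.68 and 10.51 in untreated BCR-negative cells, and 10.82, 11.03 and 10.88 in BCR-positive and 10.93, 10.89 and 10.78 in BCR-negative cells with CHIR99021. The untreated BCR-negative arrays were below all others, with -0.22 ± 0.0637 for BCR loss and 0.22 ± 0.0637 for CHIR99021 in BCR-negative cells (limma, adjusted p = 0.0828 and 0.0848). Hsp90aa1, the inducible HSP90, read 11.56, 11.50 and 11.47 in untreated BCR-positive and 11.43, 11.27 and 11.23 in untreated BCR-negative cells, which did not overlap, and 11.71, 11.64 and 11.49 in BCR-positive and 11.67, 11.49 and 11.29 in BCR-negative cells with CHIR99021. Its difference with BCR loss was -0.20 ± 0.0601 (limma, adjusted p = 0.0931). Hspa8, the constitutive HSP70, stood at -0.013 ± 0.0496 with BCR loss and 0.026 ± 0.0496 with CHIR99021 in BCR-negative cells. The J-domain genes Dnaja1 (-0.12 ± 0.0703) and Dnajb1 (-0.077 ± 0.0734) did not pass for BCR loss.

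No TRiC subunit of the list was called. With BCR loss, Cct3 had -0.28 ± 0.0796, Tcp1 -0.13 ± 0.0625, Cct5 -0.049 ± 0.0506 and Cct2 -0.036 ± 0.0496, (limma, adjusted p between 0.0763 and 0.779). Cct3 ranged from -0.052 in lymphoma 2564 to -0.51 in 2646. Tcp1 read 11.02, 10.86 and 11.02 in untreated and 11.18, 11.05 and 11.06 in CHIR99021-treated BCR-negative cells, groups that did not overlap, and 11.12, 11.02 and 11.16 in untreated and 11.08, 11.18 and 11.15 in treated BCR-positive cells. Cct2 read 11.43, 11.38 and 11.47 in untreated and 11.49, 11.50 and 11.49 in treated BCR-positive cells, again without overlap, and 11.39, 11.40 and 11.38 in untreated and 11.51, 11.39 and 11.45 in treated BCR-negative cells. The differences behind these were 0.13 ± 0.0625 and 0.065 ± 0.0496 and did not pass.

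In mitochondria, Hspd1 encodes the chaperonin that folds imported proteins in a closed chamber. It read 11.52, 11.34 and 11.49 in untreated BCR-positive and 11.36, 11.00 and 11.13 in untreated BCR-negative cells, and 11.55, 11.47 and 11.56 in BCR-positive and 11.63, 11.34 and 11.41 in BCR-negative cells with CHIR99021. It was lower in untreated BCR-negative cells of each lymphoma, although the groups overlapped. Hspd1 fell by 0.29 ± 0.0641 with BCR loss and rose by 0.30 ± 0.0641 with CHIR99021 in BCR-negative cells (limma, adjusted p = 0.0408 and 0.0384). Hspe1, its lid, had -0.15 ± 0.0670 and 0.17 ± 0.0670, and Hspa9, the mitochondrial HSP70, -0.17 ± 0.0650 and 0.21 ± 0.0650, none of which passed. Hspa9 read 10.80, 10.73 and 10.78 in untreated, and 10.94, 10.89 and 10.94 in CHIR99021-treated BCR-positive cells, which did not overlap. In BCR-negative cells it read 10.79, 10.47 and 10.55 in untreated and 10.91, 10.68 and 10.85 in treated cultures.

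Several of these genes have more than 1 probe set: Sec61b, Hspa8 and Hsp90aa1 had 3 each, and Dnaja1, Dnajc3, Hspd1 and Hspe1 had 2. Processed copies of HSP70, HSP90 and chaperonin genes are known elsewhere in genomes, so a probe set cannot be tied with certainty to the gene itself. Both sets of Dnajc3 held the same values. The other probe set of Hspd1 gave -0.34 for BCR loss in untreated cultures and 0.32 for CHIR99021 in BCR-negative cells, the same signs as the set used. The 3 sets of Hsp90aa1 lay between -0.24 and -0.17 for BCR loss and the 3 of Sec61b between -0.34 and -0.24. For Hspa8 the 3 sets differed in sign, from -0.038 to 0.0029.

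The third comparison set BCR-negative against BCR-positive cells of the cultures that had received CHIR99021. None of the 35 members was called, and 9 ER members and no other member had an unadjusted p under 0.05 in limma, all lower in BCR-negative cells, against 3.78% of all genes. Of all genes 0.00531% were called lower and 0.0106% higher. The 9 were Sdf2l1 (-0.58 ± 0.151), Hyou1 (-0.35 ± 0.104), Pdia6 (-0.34 ± 0.101), Creld2 (-0.26 ± 0.0881), Hspa5 (-0.24 ± 0.0753), Pdia3 (-0.23 ± 0.0982), Edem1, Manf (-0.18 ± 0.0792) and Calr (-0.17 ± 0.0683), with adjusted p in limma from 0.457 to 0.567. The median difference was -0.16 over ER and -0.059 over cytosolic members. By lymphoma the ER median was -0.020 in 2564, -0.22 in 2646 and -0.21 in 2676, so that 2564 stood near 0. In untreated cultures these medians had been -0.17, -0.26 and -0.23. Dnajb9 had 0.37 ± 0.201 and Herpud1 0.050 ± 0.0853. Edem1 and Syvn1 were the members whose groups did not overlap, both lower, against 2.5% of all genes.

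The fourth comparison asked what CHIR99021 did to cells that kept the BCR. None of the 35 members was called (limma, 7 at an unadjusted p under 0.05, all higher, against 4.69% of all genes), and of all genes 0.00531% were called higher and 0.0691% lower. The 7 were Hsph1, Sdf2l1 (0.40 ± 0.151), Sec61b (0.28 ± 0.0924), Pdia3 (0.26 ± 0.0982), Pdia6 (0.23 ± 0.101), Hspa5 (0.19 ± 0.0753) and Hspa9 (0.16 ± 0.0650). A positive difference was found in 15 of 20 ER members and 14 of 15 others, with medians of 0.10 over ER, 0.072 over cytosolic and 0.11 over mitochondrial members. Dnajb9 (-0.43 ± 0.201) and Herpud1 (-0.11 ± 0.0853) were negative here too. Groups did not overlap for 6 members that were higher (Hsp90b1, Calr, Hspa5, Cct2, Hsph1 and Hspa9) and for Dnajb9, which was lower, against 3.61% and 3.75% of all genes.

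With BCR loss in untreated cultures, the groups did not overlap for 7 members that were lower (Pdia3, Creld2, Dnajb11, Edem1, Calr, Hspa4 and Hsp90aa1) and for Dnajb9, which was higher, against 5.72% and 5.25% of all genes. With CHIR99021 in BCR-negative cells, they did not overlap for 7 that were higher (Pdia3, Creld2, Dnajb11, Edem1, Canx, Hspa4 and Tcp1) and for Dnajb9 and Herpud1, which were lower, against 4.6% and 4.05% of all genes.

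The interaction asked whether BCR loss acted differently with CHIR99021. No member and no other gene was called (0% of genes; limma, 990 of 18820 genes at an unadjusted p under 0.05, 3.35% higher and 1.91% lower, and 2 of 35 members). The 2 members were Herpud1 (-0.35 ± 0.121) and Hspd1 (0.23 ± 0.0907), each with 1 sign in all 3 lymphomas (limma, adjusted p = 0.928 for both). For Dnajb9 it was -0.50 ± 0.284, for Pdia3 0.26 ± 0.139 and for Hsph1 0.27 ± 0.170. A change that passed in 1 culture or population and not in the other is therefore not shown to differ between them.

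**Figure D4:**
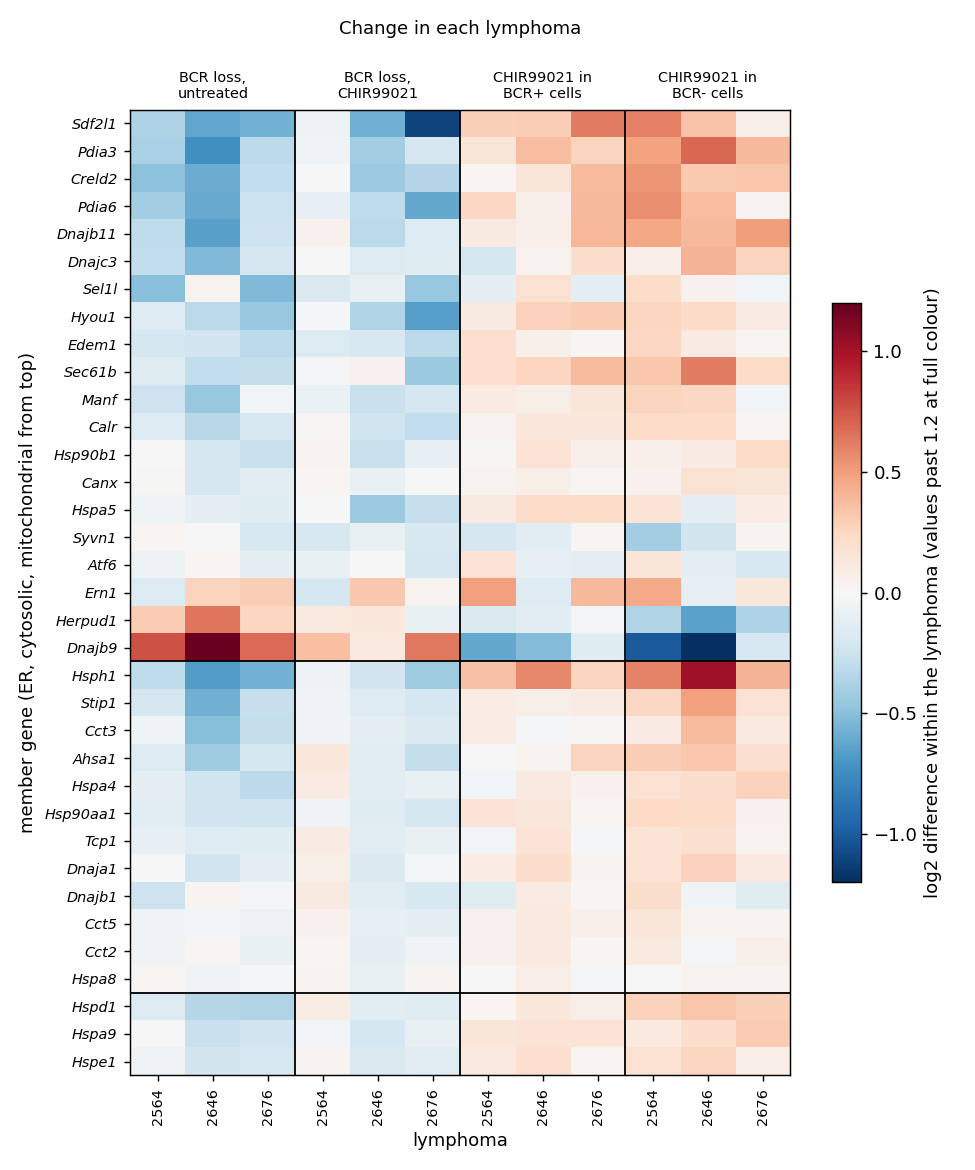
Log2 difference within each lymphoma (columns, 3 per comparison) for the 35 members (rows, ER members above the first line, cytosolic below it and mitochondrial below the second); blue is lower and red is higher, with full colour from 1.2 on. For BCR loss with CHIR99021, lymphoma 2564 is pale in most rows, and the ER median there was -0.020.

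Other genes of these pathways were read from 8 further lists with 111 measured genes. With BCR loss in untreated cultures 2 of them rose and 4 fell, where 1.91% of all genes were called higher and 2.3% lower. With CHIR99021 in BCR-negative cells 11 of the 111 rose and 3 fell, where 1.91% of all genes were called higher and 1.76% lower. Among 10 regulators of the unfolded protein response, Crebrf, which targets the stress factor CREB3 for degradation, rose by 0.95 ± 0.181 with BCR loss. It read 6.85, 6.47 and 7.27 in untreated BCR-positive, 7.40, 7.91 and 8.13 in untreated BCR-negative, 4.92, 5.38 and 5.91 in treated BCR-positive and 5.24, 5.99 and 6.57 in treated BCR-negative cells. In each population the treated arrays lay below the untreated ones without overlap. With CHIR99021, Crebrf fell by 1.46 ± 0.181 in BCR-positive cells and fell by 1.88 ± 0.181 in BCR-negative cells (limma, adjusted p = 0.0387 and 0.00320). Wfs1, an ER membrane gene that ER stress is known to induce, rose by 0.40 ± 0.0823 with CHIR99021 in BCR-negative cells. Xbp1 was not called in any comparison, with -0.12 ± 0.0988 for BCR loss in untreated cultures and 0.31 ± 0.0988 for CHIR99021 in BCR-positive cells. The signal of Xbp1 does not part its spliced from its unspliced RNA.

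Of 9 genes of the integrated stress response, which PERK feeds into, Ppp1r15a rose by 1.29 ± 0.311 with BCR loss (limma, adjusted p = 0.0499) and the other 8 did not pass. It encodes GADD34, which turns the response off, and read 7.26, 7.00 and 7.06 in untreated BCR-positive and 8.42, 8.71 and 8.08 in untreated BCR-negative cells, without overlap. In treated cultures these values were 7.42, 6.23 and 7.16 in BCR-positive and 7.55, 6.37 and 7.71 in BCR-negative cells. Atf3, a transcription factor that stress induces and that is named here after its values were seen, read 6.66, 8.12 and 7.36 in untreated BCR-positive and 8.31, 10.46 and 9.82 in untreated BCR-negative cells, without overlap. Its difference of 2.15 ± 0.550 with BCR loss was the largest positive one of all 18820 genes and did not pass (limma, adjusted p = 0.0578). It was higher in all 3 lymphomas. Under CHIR99021 Atf3 read 8.59, 7.61 and 8.07 in BCR-positive and 9.04, 7.98 and 9.14 in BCR-negative cells. Atf4, the response's main transcription factor, stood at -0.063 ± 0.106, and no gene of this list was called for CHIR99021 in BCR-negative cells.

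Of 20 further ER folding genes, Tmx1, a membrane-bound disulfide isomerase, fell by 0.26 ± 0.0586 with BCR loss and the others did not pass. With CHIR99021 in BCR-negative cells 4 of the 20 rose, among them Tmx1 by 0.45 ± 0.0586 and P4hb, which encodes protein disulfide isomerase itself, by 0.38 ± 0.0682 (limma, adjusted p = 0.00802 and 0.0217). Of 17 genes of protein entry into the ER, 3 rose there and none had been called with BCR loss. Sec61a1, the pore of the channel, rose by 0.31 ± 0.0566 and Spcs3, a signal peptidase subunit, by 0.35 ± 0.0791. Among 15 further degradation genes Derl2 rose by 0.33 ± 0.0714, and Derl3 fell by 0.86 ± 0.181 and Selenok fell by 0.23 ± 0.0511. Derl3 is also a plasma cell marker.

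Outside the ER, of 21 further genes of the heat shock and HSP70 systems 2 fell with BCR loss, Fkbp5 by 0.42 ± 0.0726 and the ribosome-bound J-domain gene Dnajc2 by 0.36 ± 0.0770. With CHIR99021 in BCR-negative cells 2 of the 21 rose, Bag5 by 0.31 ± 0.0657 and Fkbp5 by 0.34 ± 0.0726. Fkbp5 binds HSP90 and is best known as a target of the glucocorticoid receptor. Of 10 further chaperonin and prefoldin genes, Cct8 fell by 0.26 ± 0.0585 with BCR loss and none was called with CHIR99021. None of 9 further mitochondrial genes was called in either. No gene of the 8 lists was called for BCR loss in CHIR99021 cultures or in the interaction, and only Crebrf was for CHIR99021 in BCR-positive cells. All values of this kind are from limma with an adjusted p under 0.05.

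Some markers of cell types passed in the same comparisons. Prdm1, the regulator of plasma cell fate, rose by 1.62 ± 0.293 with BCR loss in untreated cultures and was the only one of 10 plasma cell markers called there, while Jchain had the lowest mean of the list, 3.66. The mean log2 signal over that list was 7.10 to 7.25 in untreated BCR-positive and 7.08 to 7.45 in untreated BCR-negative cells. With CHIR99021 in BCR-negative cells, Lyz2 rose by 0.46 ± 0.100 from 3.52, 3.57 and 3.85 to 4.28, 4.04 and 4.01, all below the array medians, and was the only one of 9 myeloid markers called. The mean over the myeloid list was 4.44 to 5.21 in untreated and 4.55 to 5.27 in treated BCR-negative cells. Cd79b, a BCR signalling chain, fell by 0.33 ± 0.0604, and Epor, of the erythroid list, fell by 0.35 ± 0.0729. All 9 B-cell markers had a negative difference with CHIR99021 in BCR-negative cells, with a median of -0.33, where 8624 of 18820 genes were negative. In BCR-positive cells all 9 were negative too, with a median of -0.29, where 9187 of 18820 genes were negative. The mean over 9 B-cell markers was 9.12 to 9.47 in untreated BCR-positive, 9.32 to 9.37 in untreated BCR-negative, 8.45 to 9.31 in treated BCR-positive and 8.51 to 9.25 in treated BCR-negative cells. The part of these in the chaperone values was not tested.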

How the data were processed

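The authors deposited log2 values for 35556 probe sets on 12 arrays. Per the submitters' processing notes, Affymetrix Power Tools and RMA were used, with no version named. RMA scales arrays to each other, so a shift of all RNA in a cell would not be seen. The platform annotation gave 21218 probe sets 1 gene symbol and 1881 several, and 12457 were not listed. The probe set with the highest mean stood for a gene, which left 18820 genes. The fit was limma 3.58.1 in R 4.3.3: group and lymphoma over all 12 arrays (6 residual degrees of freedom), eBayes and Benjamini-Hochberg adjustment over 18820 genes, with calls at 0.05. The number of arrays limits the precision.

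Lymphoma was a block because the labels give every array the number of 1 of 3 lymphomas, and deviations of arrays of 1 lymphoma from the group means correlated at 0.813 to 0.907 (18 pairs). No pair of arrays was identical. The members and lists were chosen with earlier results of these data known. Described one by one were members called in any comparison, members whose groups did not overlap in one, and the regulators Hspa5, Atf6 and Ern1. Of the other lists the called genes were named, at most 2 per direction, list and comparison, with Xbp1 and Atf4; Ddit3, Hspa1a and Hspa1b are not analysed here. Promoters came from the RefSeq table of assembly GRCm38.p6.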

Additional observations from a re-analysis of the deposited data

How the results depend on the processing

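Each setting changed 1 choice, except that the trend and robust options of eBayes were switched on together. The counts of called members, 8 for BCR loss in untreated cultures and 7 for CHIR99021 in BCR-negative cells, became 0 and 0 without the replicate block (10 and 12 at an unadjusted p under 0.05 in limma), 0 and 0 with lymphoma as a random block (23 and 19), and 0 and 0 in fits of only the arrays compared (21 and 19). With culture as a finer block there were 4 for BCR loss, and with array medians subtracted 14. The dim filter, the mean of probe sets, cyclic loess, and trend and robust gave 6 to 10 and 6 to 8, and array medians gave 9 for CHIR99021 in BCR-negative cells. Leaving out a lymphoma or an array gave 0 to 10 and 0 to 7. In the other 3 comparisons every setting run gave 0 members, leave-outs included (limma, 0 to 13 at an unadjusted p under 0.05). The culture block could not be fitted for the effects of CHIR99021, and the interaction has no subset of arrays of its own. Over 4095 values of members under these settings, 201 lost and 29 gained a call, 124 values that were not called changed sign, and no called value did. Since the called members moved 1 way in all 3 lymphomas, no leave-out of a lymphoma could reverse them, which says nothing about stability. With 3 lymphomas, small changes of single genes could not be called, and a value that did not pass is not shown to be unchanged.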
